A study of Mus musculus with 20 samples.

Results

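The proteasome is the protein-degrading machine of the cell, and its subunits are encoded by genes whose symbols begin with Psm. The members described here are all genes whose symbol starts with Psm, a letter from a to g and a number, with pseudogenes left out. There are 50 of them among the 55487 symbols of the prefrontal cortex count table and the same 50 among the 57180 identifiers of the hippocampus table. They were counted in brain tissue of wild-type mice aged 2 to 6 months. One experiment used male mice, of which 4 received LPS (lipopolysaccharide, an endotoxin of Gram-negative bacteria) by intraperitoneal injection at 5 mg/kg and 4 received 0.9% saline the same way, and the prefrontal cortex (PFC) was dissected 24 h later. The other gave 0.2 mg/kg of nicotine, which activates nicotinic receptors, to 6 mice and saline to 6, and the hippocampus (HPC) was dissected 24 h later. For the hippocampal animals the sex and the route of nicotine are not given in the labels. The 2 tissues came from different experiments and count tables, so tissue and experiment cannot be told apart.

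In the proteasome a 20S core cuts proteins inside a barrel of rings of alpha and beta subunits, and a 19S cap of ATPase and non-ATPase subunits recognises ubiquitin-tagged proteins, unfolds them and feeds them in. Interferons induce a variant core, the immunoproteasome, in which Psmb8, Psmb9 and Psmb10 take the catalytic places of Psmb5, Psmb6 and Psmb7. The same signal induces Psme1 and Psme2, which together form the activator ring PA28 on the end of the core, and the peptides cut by this form are loaded on MHC class I molecules. In healthy brain the constitutive core prevails, and the induced form is best known from microglia and infiltrating immune cells under inflammation.

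The labels of the PFC libraries contradict each other, and the results below rest on one reading of them. For 4 of the 8 records (Samples 2L, 4L, 6L and 8L) the title and the treatment field name the other treatment than the count column quoted for the same record. Groups follow the column, so that Samples 2L, 4L, 5L and 7L are LPS and Samples 1L, 3L, 6L and 8L are saline. With groups by title instead, 0 members and 0 genes of the whole table passed the edgeR test, and 0 members had an unadjusted p under 0.05. Libraries held 39871000 to 42924749 counts with LPS and 36371084 to 46106526 with saline in PFC, and 53145736 to 62982229 with nicotine and 51969343 to 68196280 with saline in HPC. Slc17a7, the glutamate transporter of cortical and hippocampal excitatory neurons, stood at 1467 to 1895 CPM (counts scaled to library size with TMM factors) with LPS and 1245 to 1765 with saline in PFC. The dentate gyrus marker C1ql2 stood at 36.2 to 71.1 CPM with nicotine and 64.4 to 99.2 with saline in HPC, against at most 1.75 CPM in any PFC library. The PFC libraries differed widely in the summed CPM of 6 striatal markers, at 213 to 1064 with LPS and 149 to 749 with saline, and the HPC libraries in 5 choroid plexus markers, at 58.5 to 2336 with nicotine and 41.5 to 3977 with saline.

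The promoter windows of 5 members are shown, the pairs Psmb8 with Psmb5 and Psmb9 with Psmb6, and Psme1 of the PA28 pair. They were chosen in part because a motif tied to interferon or stress signalling was found in 4 of them. That number is therefore no measure of how common the motifs are. The windows of the induced genes Psmb10 and Psme2 held 0 matches to the motifs searched and are not shown. Each runs from 250 bases before to 50 bases after the RefSeq start on the strand of the gene, in build GRCm38.p6, and capitals mark the motif match. Psmb8 lies at chr17:34197945-34198244 on the plus strand, Psmb9 at chr17:34187281-34187580 on the minus strand, and Psme1 at chr14:55578244-55578543 on the plus strand. Psmb5 lies at chr14:54617946-54618245 on the minus strand and Psmb6 at chr11:70525107-70525406 on the plus strand. The window of Psmb9 also holds the annotated start of Tap1, the peptide transporter gene that runs the other way on chromosome 17.
Psmb8: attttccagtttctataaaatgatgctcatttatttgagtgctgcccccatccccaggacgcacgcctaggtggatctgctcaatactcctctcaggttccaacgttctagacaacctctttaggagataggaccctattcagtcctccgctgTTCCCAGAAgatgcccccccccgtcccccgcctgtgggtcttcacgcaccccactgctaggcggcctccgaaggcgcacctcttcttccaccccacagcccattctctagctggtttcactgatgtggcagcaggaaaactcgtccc
Psmb9: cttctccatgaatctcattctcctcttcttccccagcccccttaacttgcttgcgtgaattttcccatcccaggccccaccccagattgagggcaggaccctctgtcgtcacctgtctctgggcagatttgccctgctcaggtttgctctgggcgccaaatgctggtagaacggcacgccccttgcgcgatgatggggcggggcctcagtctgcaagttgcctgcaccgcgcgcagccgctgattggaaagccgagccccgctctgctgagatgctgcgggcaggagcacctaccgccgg
Psme1: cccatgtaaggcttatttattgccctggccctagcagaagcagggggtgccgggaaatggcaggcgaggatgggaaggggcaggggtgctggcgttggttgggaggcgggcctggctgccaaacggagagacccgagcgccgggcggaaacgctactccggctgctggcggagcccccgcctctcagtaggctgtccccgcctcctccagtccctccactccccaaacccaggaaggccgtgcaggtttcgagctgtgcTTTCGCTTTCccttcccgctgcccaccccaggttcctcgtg
Psmb5: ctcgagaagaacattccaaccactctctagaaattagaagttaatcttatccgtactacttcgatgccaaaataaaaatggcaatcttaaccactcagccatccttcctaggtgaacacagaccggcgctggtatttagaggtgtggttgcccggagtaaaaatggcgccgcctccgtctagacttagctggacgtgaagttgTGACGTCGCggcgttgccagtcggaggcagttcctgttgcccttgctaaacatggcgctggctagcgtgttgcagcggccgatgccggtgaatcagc
Psmb6: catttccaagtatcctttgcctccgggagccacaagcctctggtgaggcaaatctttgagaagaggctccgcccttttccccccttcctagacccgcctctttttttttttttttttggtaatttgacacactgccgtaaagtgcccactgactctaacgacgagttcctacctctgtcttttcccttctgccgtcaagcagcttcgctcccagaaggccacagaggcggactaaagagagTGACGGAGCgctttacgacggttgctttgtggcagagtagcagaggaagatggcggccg

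The capitals in Psmb8 are a match to the interferon-gamma motif GAS (TTCNNNGAA), 97 to 89 bases before the RefSeq start. Those in Psme1 are a match on the other strand to the interferon-stimulated response element ISRE (GAAA, any 2 bases, GAAA), 10 to 19 bases after the start. Those in Psmb5 and Psmb6 match the antioxidant response element ARE (TGACNNNGC), 47 to 39 and 9 to 1 bases before the start. All letters were searched on both strands, together with the NF-kB motif, in the 42 members with a window in the RefSeq table. An ISRE was found in 5 of 42 members, against 3.99% of 27025 genes, and these were Psmb3, Psmd4, Psmd9, Psme1 and Psmg4. A GAS was found in 3 of 42 members, against 9.55% of all genes, an ARE in 6 of 42, against 14%, and the NF-kB motif in 6 of 42, against 9.55%. Of the 5 induced genes, 1 held an ISRE, 1 a GAS, 0 an ARE and 0 the NF-kB motif. A match is a description of letters and says nothing about binding. The windows of Psmb8, Psmb9 and Psme1 lie wholly inside the annotated gene spans. Their RefSeq starts are thus downstream of the outermost annotated start, and all positions given are relative to the RefSeq start.

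In PFC the immunoproteasome genes were higher with LPS in every library, and Psmb8 changed most. Psmb8, the induced counterpart of the chymotrypsin-like subunit, lies at chr17:34197721-34201454 in the MHC region. It stood at 16.4, 16.3, 16.1 and 13.7 CPM in LPS Samples 2L, 4L, 5L and 7L, against 3.77, 3.64, 3.72 and 3.82 CPM in saline Samples 1L, 3L, 6L and 8L. The groups were far apart, and the lowest LPS library, Sample 7L, still stood above every saline library. The log2 fold change was 2.06 (SE 0.11, edgeR quasi-likelihood test with Benjamini-Hochberg adjustment over 17760 genes, adjusted p = 4.09e-07), a 4.17-fold difference and the 24th smallest p of all genes. In bulk tissue more cells of a type and more RNA per cell cannot be told apart. The summed CPM of 10 leukocyte markers was 9.65 to 33.4 with LPS and 5.51 to 15.9 with saline, with Ptprc and S100a8 passing the test as higher among the 5 that could be tested. Cd3e, Cd8a and Ly6g were at 0.15 CPM or less. The 6 microglial markers summed to 191 to 270 CPM with LPS and 300 to 327 with saline, and 3 of the 6 fell, among them P2ry12 and Tmem119. Cd4 made up much of the leukocyte sum, at 0.998 to 19.1 CPM with LPS and 1.26 to 9.13 with saline. Without Cd4, left out after seeing the data, the other 9 summed to 8.61 to 14.3 CPM with LPS and 4.26 to 6.78 with saline. That these ranges did not overlap depends on this choice, since the sums of all 10 did. Of the 17760 single genes tested, 37.1% had groups that did not overlap. LPS Sample 7L, lowest for Psmb8, was also lowest of the LPS libraries in the microglial and striatal sums. The part of these markers in the result was not tested.

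Psmb9, the induced counterpart of the caspase-like subunit, lies at chr17:34181987-34187764, with Tap1 between it and Psmb8. Its CPM was 3.69, 3.17, 2.53 and 2.81 with LPS (2L, 4L, 5L, 7L), against 1.51, 1.40, 1.42 and 1.59 with saline (1L, 3L, 6L, 8L). The groups did not overlap, and the highest library was LPS Sample 2L. The log2 fold change was 1.04 (SE 0.19, edgeR adjusted p = 0.00123). Psmb9 shares 212 exonic bases, 5.79% of its exons, with Tap1 on the opposite strand, and the strand setting of the counting is not given. Tap1 averaged 27.9 ± 5.34 CPM with LPS and 2.93 ± 0.502 CPM with saline (SD, n = 4 each). Depending on the counting settings, reads in the shared bases could raise or lower the count of Psmb9. The part of these reads was not tested.

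Psmb10, the induced counterpart of the trypsin-like subunit, lies at chr8:105935735-105938444. It stood at 40.4, 35.1, 33.4 and 40.4 CPM with LPS, against 30.8, 26.7, 26.1 and 28.2 CPM with saline, in the same order of libraries. Every LPS library was above every saline library, by a smaller margin than for Psmb8. The log2 fold change was 0.42 (SE 0.09, edgeR adjusted p = 0.00482). Psmb11, the thymus-specific counterpart of Psmb5, was barely expressed, at 6 to 18 counts per LPS library and 13 to 49 counts per saline library. Its log2 fold change of -1.12 had an edgeR adjusted p of 0.056 and did not pass.

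The PA28 genes Psme1 and Psme2, neighbours on chromosome 14, were higher by a similar amount. Psme1 stood at 41.7, 43.5, 40.0 and 41.1 CPM with LPS, against 35.0, 33.0, 31.0 and 33.2 CPM with saline. Psme2 stood at 18.5, 21.0, 19.6 and 21.2 CPM with LPS, against 16.2, 16.8, 16.1 and 15.2 CPM with saline. Neither gene had overlapping groups. The log2 fold changes were 0.33 for Psme1 (SE 0.08, edgeR adjusted p = 0.00477) and 0.32 for Psme2 (SE 0.09, edgeR adjusted p = 0.0138). Without LPS Sample 4L the adjusted p of Psme2 was 0.0522. Without the 4 libraries whose labels contradict each other, Psmb10, Psme1 and Psme2 kept log2 fold changes of 0.35, 0.24 and 0.30 with edgeR adjusted p of 0.0818, 0.121 and 0.1095, while Psmb8 and Psmb9 still passed.

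The constitutive catalytic genes did not pass the test, and their groups overlapped. Psmb5, the chymotrypsin-like subunit, stood at 48.5, 46.8, 49.4 and 63.7 CPM with LPS, against 56.2, 57.4, 59.1 and 53.3 CPM with saline. LPS Samples 2L, 4L and 5L lay below all 4 saline libraries, and LPS Sample 7L lay above all of them. The log2 fold change was -0.12, with a 95% confidence interval of -0.33 to 0.10 (edgeR adjusted p = 0.368). Without LPS Sample 7L it was -0.24 and passed (edgeR adjusted p = 0.0289). Psmb6, the caspase-like subunit, stood at 95.1, 120.0, 100.4 and 131.5 CPM with LPS, against 112.7, 102.0, 108.1 and 99.6 CPM with saline, and had a log2 fold change of 0.08 (interval -0.14 to 0.30, edgeR adjusted p = 0.542). Without LPS Sample 7L it was -0.01, so the sign rests on that library. Psmb7, the trypsin-like subunit, stood at 96.4, 97.4, 97.1 and 109.7 CPM with LPS, against 91.2, 102.0, 86.9 and 82.5 CPM with saline, and had a log2 fold change of 0.14 (interval -0.03 to 0.32, edgeR adjusted p = 0.171). Saline Sample 3L alone kept the Psmb7 groups from separating. Nek6, which shares 11.8% of the exonic bases of Psmb7 on the other strand, averaged 34.5 ± 2.97 CPM with LPS and 24.3 ± 0.729 with saline (SD, n = 4 each), and the part of its reads was not tested.

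**Figure D1:**
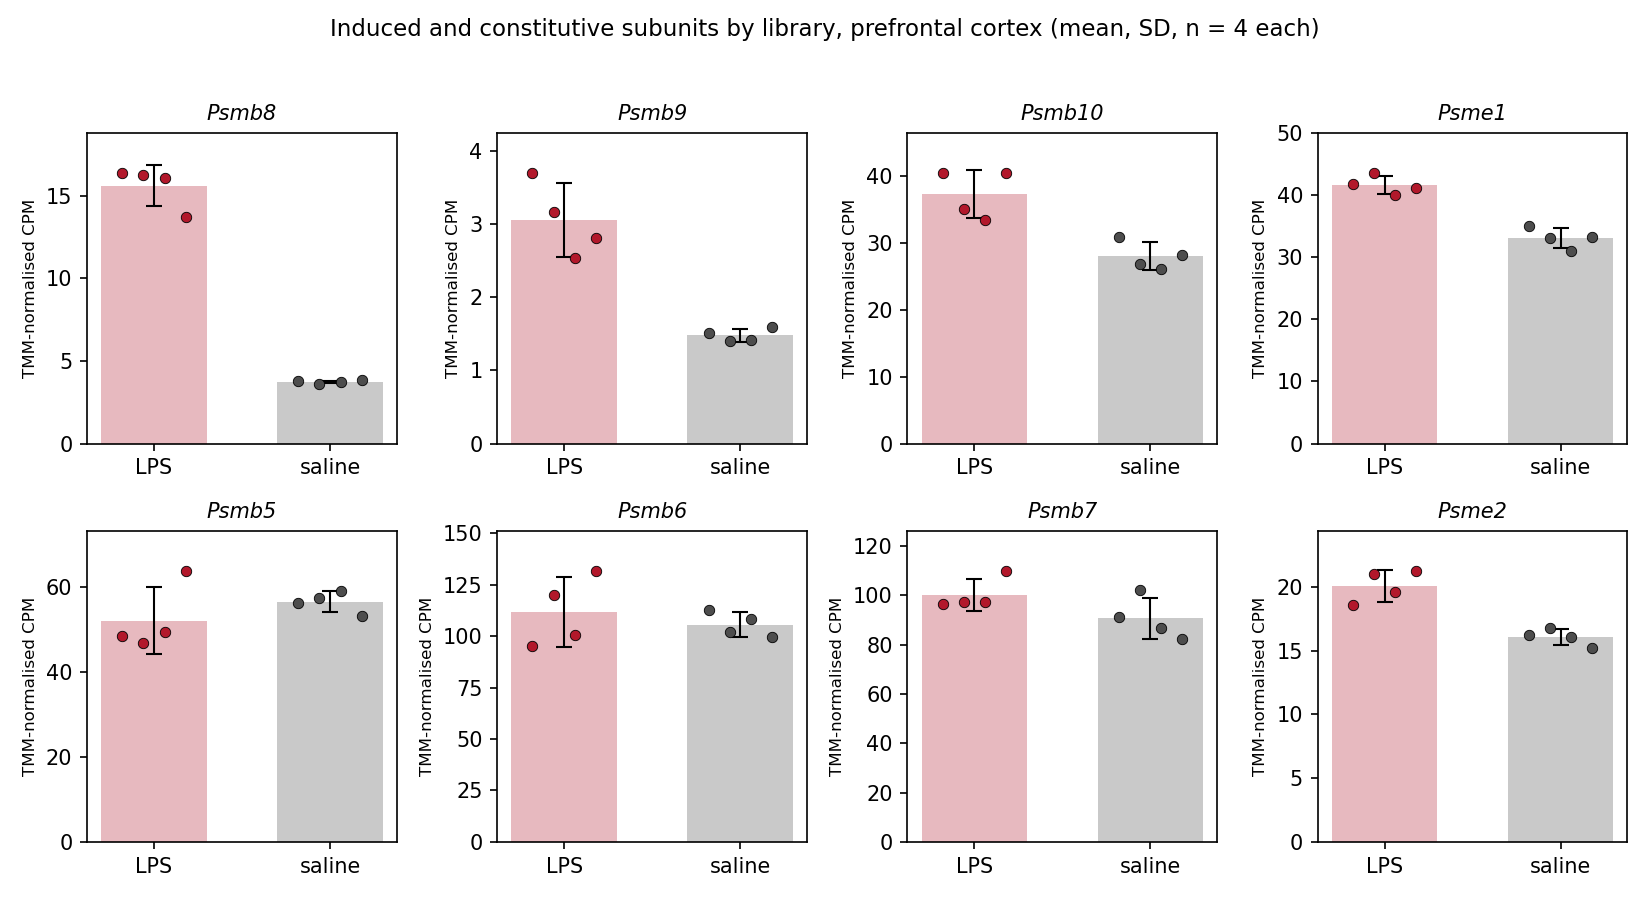
TMM-normalised CPM (y axis, from 0) of the 5 induced genes and the 3 constitutive catalytic genes in each PFC library, with LPS left of saline. Bars are means, whiskers are SDs (n = 4 each) and points are libraries. Psmb8 reaches 13.7 to 16.4 CPM with LPS and 3.64 to 3.82 CPM with saline, while the points of Psmb5, Psmb6 and Psmb7 overlap.

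To set partners against each other, CPM was divided by the length of the principal transcript in kilobases, and each induced subunit was expressed as a share of the pair. Psmb8 made up 14.4 ± 2.55% of Psmb8 plus Psmb5 with LPS (range 10.6 to 16.1%) and 3.53 ± 0.212% with saline (SD, n = 4 each). Psmb9 made up 1.62 ± 0.43% of Psmb9 plus Psmb6 with LPS and 0.823 ± 0.0759% with saline. Psmb10 already made up 21.5 ± 2.06% of Psmb10 plus Psmb7 with saline, and it made up 24.8 ± 1.59% with LPS. In each pair the ranges of the groups did not overlap, and the constitutive partner remained the more abundant transcript in every library. These shares describe RNA, depend on the transcript length used, and carry no test. With all annotated exons as the length, Psmb8 made up 7.51% with LPS and 1.73% with saline, and Psmb10 42.7% with LPS and 38.3% with saline.

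**Figure D2:**
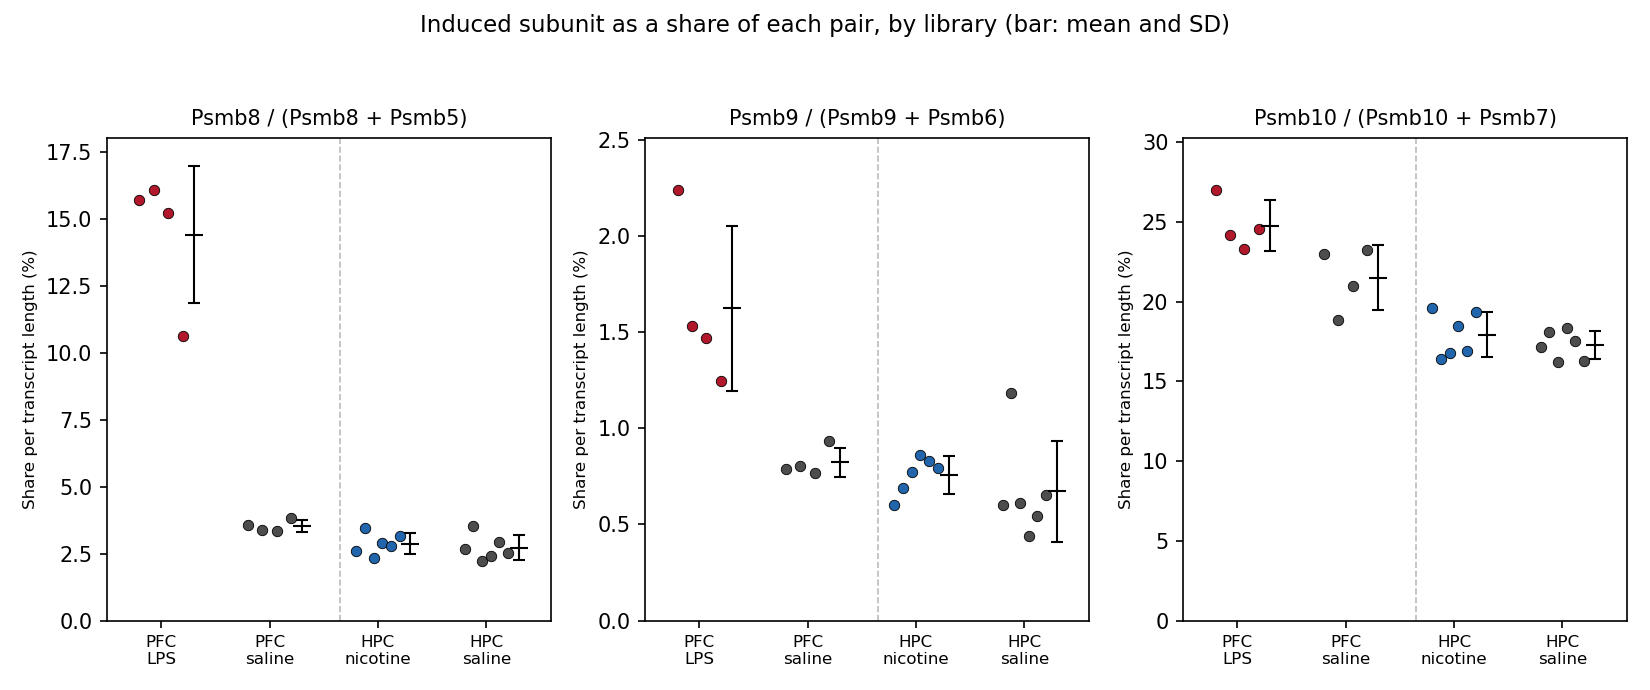
Psmb8, Psmb9 and Psmb10 as a percentage of the pair with Psmb5, Psmb6 and Psmb7 (y axes, from 0, levels per kilobase of principal transcript) in each library. Columns from left to right are PFC LPS, PFC saline, HPC nicotine and HPC saline, points are libraries and the bars beside them are mean and SD. PFC LPS libraries lie at 10.6 to 16.1% for Psmb8, above the 3.36 to 3.81% of PFC saline, while the HPC groups overlap in all 3 panels.

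Beyond the induced genes the response was small in size, mostly upward, and uneven over the particle. The genes called higher were 7 of 11 non-ATPase and 4 of 7 alpha genes. They were 1 of 6 ATPase, 1 of 4 non-catalytic beta and 0 of 3 constitutive catalytic genes, and differences between these roles were not tested. Of the 48 members that passed the expression filter, 23 were higher and 2 lower, 52.1% in all, against 41.2% of the 17760 genes tested. The share called higher was 47.9% of members, against 21.5% of all genes, and the share called lower was 4.17%, against 19.7%. Without the 5 induced genes 18 of 43 were higher (41.9%) and 2 lower (4.65%). The median log2 fold change was 0.21 over the 48 members and 0.20 without the 5 induced genes, against 0.01 over all genes. The called members beyond 1.5-fold were Psmb8, Psmb9, Psme4 and Psmd9. With only the 4 libraries whose labels agree 11 members were called, 8 higher and 3 lower, and 10 of them were among the 25. The groups did not overlap for 18 members, 37.5%, which is close to the 37.1% of all genes. The number called was 14 without LPS Sample 4L and 15 without LPS Sample 5L, all of them higher. The number higher was also 15 without LPS Sample 7L and 15 without saline Sample 8L. The number lower was 1 without saline Sample 1L or 3L. Without Sample 3L it was neither of the 2 falls of the main fit, Psmd10 and Psmg2 (edgeR adjusted p = 0.118 and 0.054). The share of all genes called in the fits with fewer libraries is not given here. Markers of other cell types differed between the same groups. The 6 neuronal markers summed to 7855 to 8958 CPM with LPS and 7132 to 8158 with saline, with Rbfox3 higher (0.445) and Gad1 lower (-0.62). The 5 endothelial markers summed to 142 to 169 CPM with LPS and 120.5 to 145 with saline, with Cdh5 (1.34) and Cldn5 (0.39) higher and Tek lower (-1.44). The 4 astrocyte markers summed to 923 to 1039 CPM with LPS and 1110 to 1210 with saline, with Gja1 (-0.52) and Slc1a3 (-0.24) lower and Aldh1l1 higher (0.34). Of 4 oligodendrocyte markers Mog fell (-1.10) and 3 did not pass, and their sums overlapped. The part of these markers in the members' values was not tested. The 2 members outside the test were Psma8, a testis alpha subunit with 6 to 25 counts per LPS library and 5 to 11 per saline library, and Psme2b, with 0 counts in every library of both tissues.

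**Figure D3:**
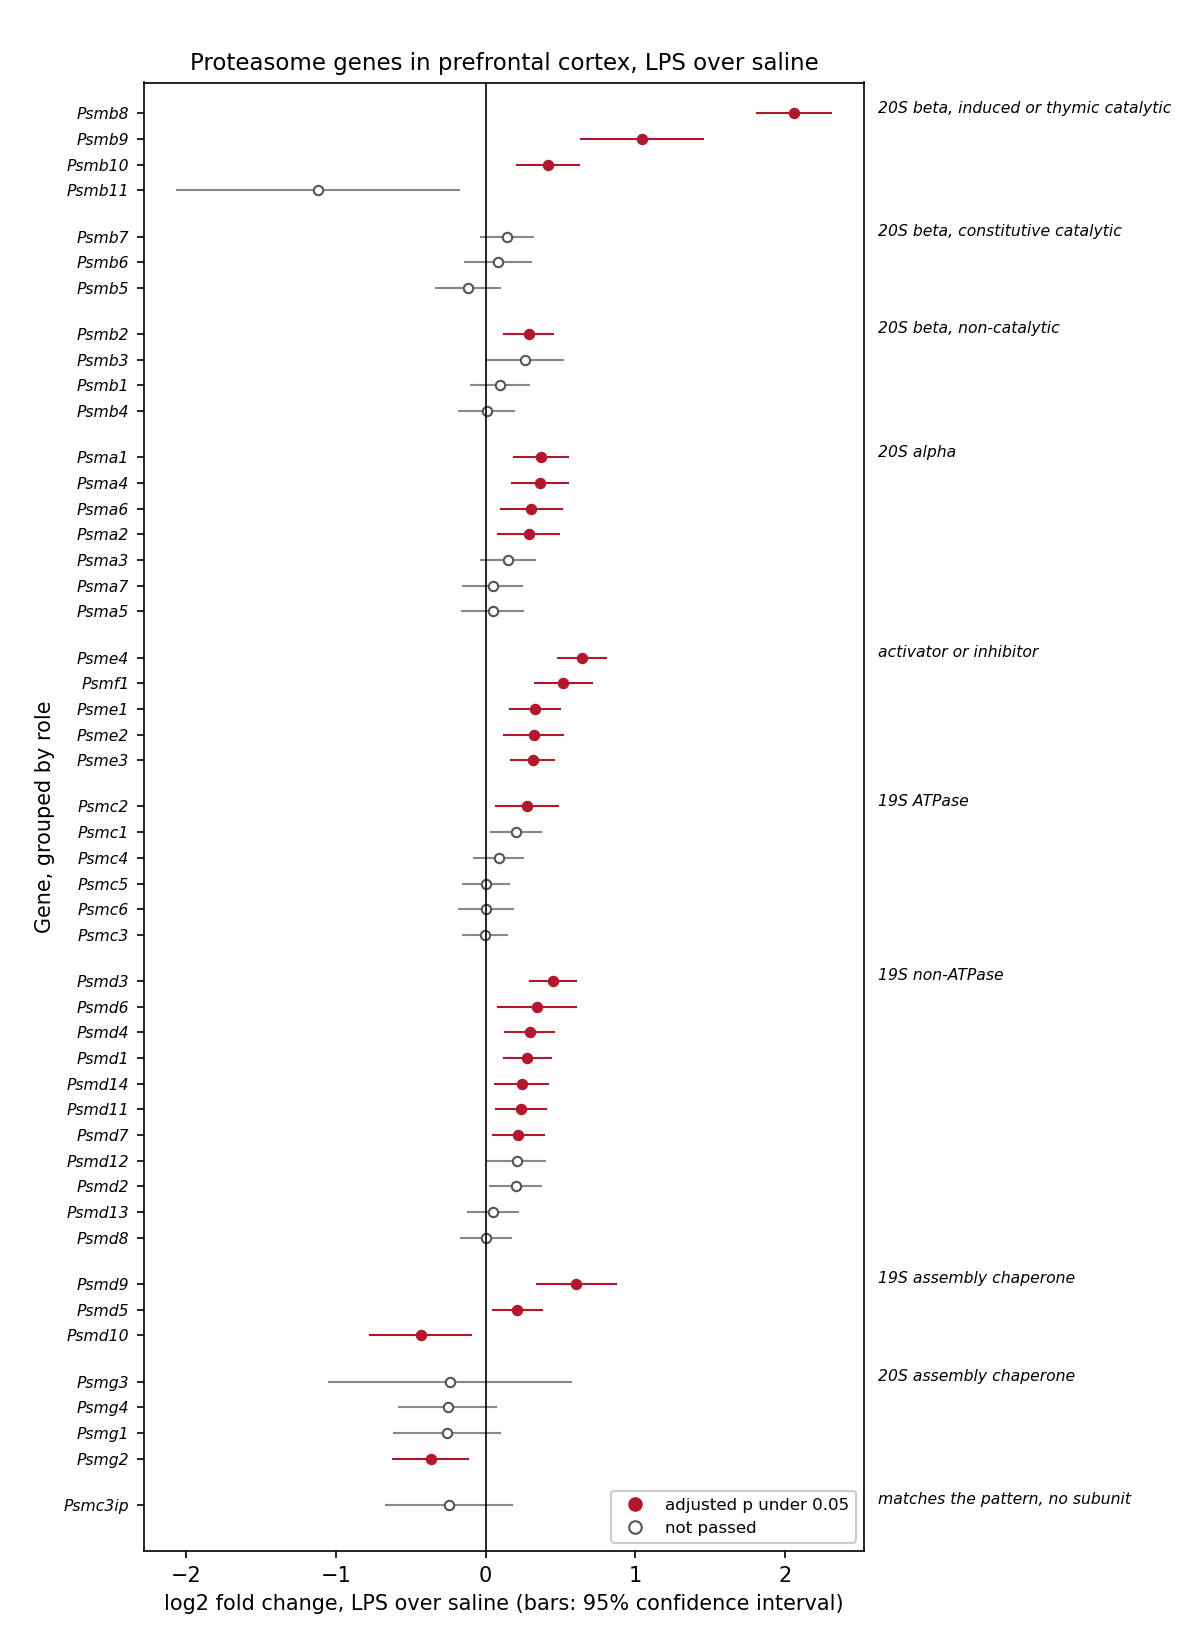
log2 fold change of LPS over saline in PFC (x axis) for the 48 members tested (y axis, grouped by role as named at the right). Points are estimates, bars are 95% confidence intervals, and filled points passed an adjusted p of 0.05. Psmb8 at 2.06 and Psmb9 at 1.04 stand apart, the other filled points above 0 lie between 0.21 and 0.65, and Psmd10 and Psmg2 are the filled points below 0.

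Among the other core subunits, 4 of the 7 alpha genes tested were higher (57.1%, against 21.5% of all genes) and 3 did not pass. Psma1 rose most, to 75.0, 81.7, 79.4 and 81.7 CPM in LPS Samples 2L, 4L, 5L and 7L, against 60.3, 71.7, 57.0 and 57.2 CPM in saline Samples 1L, 3L, 6L and 8L (log2 fold change 0.37, SE 0.08, edgeR adjusted p = 0.00457). Its groups did not overlap, with saline Sample 3L just below LPS Sample 2L. Psma4 had a log2 fold change of 0.37 and Psma6 one of 0.31, and Psma6 did not pass when any one of LPS Samples 4L, 5L and 7L and saline Samples 1L, 6L and 8L was left out (edgeR adjusted p = 0.0524 to 0.0688). With only the 4 libraries whose labels agree, Psma1 (edgeR adjusted p = 0.091), Psma4 (0.0828) and Psma6 (0.0874) did not pass. Psma5 and Psma7 stood at 0.05 without passing. Of the non-catalytic beta genes, Psmb2 alone passed (log2 fold change 0.29, SE 0.08, edgeR adjusted p = 0.0101, and 0.108 with only those 4 libraries), with Psmb1, Psmb3 and Psmb4 at 0.10, 0.26 and 0.01. The 7 alpha subunits form the outer rings, and per kilobase they summed to 418 ± 33.6 CPM with LPS and 358 ± 33.4 CPM with saline (SD, n = 4 each).

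Every gene tested that encodes an activator or inhibitor of the core was higher with LPS, 5 of 5, against 21.5% of all genes. Psme1 and Psme2, described above with the induced genes, are among these 5. Psme4 encodes PA200, an activator that binds the core and takes part in degrading acetylated histones, and it had the smallest p of this group. It stood at 71.2, 77.6, 68.3 and 78.8 CPM with LPS, against 48.2, 44.7, 49.5 and 46.9 CPM with saline (log2 fold change 0.65, SE 0.07, edgeR adjusted p = 6.89e-05). The gap between the groups was wider than either group's range. Psmf1, which encodes the core inhibitor PI31, stood at 40.6 to 49.7 CPM with LPS, against 29.5 to 33.5 CPM with saline (log2 fold change 0.52, SE 0.09, edgeR adjusted p = 0.0008). Psme3, which encodes the nuclear activator PA28-gamma and is not part of the interferon-induced pair, stood at 134.5 to 152.3 CPM with LPS, against 112.8 to 123.3 CPM with saline (log2 fold change 0.32, SE 0.07, edgeR adjusted p = 0.00287). Its fold change was close to those of Psme1 and Psme2. With only the 4 libraries whose labels agree, Psme3 did not pass (edgeR adjusted p = 0.0528), so that 2 of the 5, Psme4 and Psmf1, passed. Relative to the alpha rings the PA28 pair changed little, at 13.99 ± 1.01% of the summed alpha level per kilobase with LPS and 13.1 ± 1.00% with saline (SD, n = 4 each), and these ranges overlapped.

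In the 19S cap most of the rises were among the non-ATPase genes. Of 11 non-ATPase genes 7 were higher (63.6%, against 21.5% of all genes) and 4 did not pass. All 11 had a log2 fold change above 0, against 50.9% of all genes. Psmd3, a scaffold subunit of the lid, stood at 159.0, 167.8, 177.0 and 190.0 CPM with LPS, against 133.8, 123.6, 126.4 and 124.1 CPM with saline (log2 fold change 0.45, SE 0.07, edgeR adjusted p = 0.000532). Its groups were separated, with saline Sample 1L the highest of its group. Psmd4, a ubiquitin receptor, had a log2 fold change of 0.30, and Psmd1, the large scaffold of the base, one of 0.28, also without overlap. With only the 4 libraries whose labels agree, neither passed (edgeR adjusted p = 0.0602 for Psmd4 and 0.0615 for Psmd1). Of the 6 ATPase genes Psmc2 alone passed (log2 fold change 0.28, SE 0.09, edgeR adjusted p = 0.0335), and it ran from 108.9 CPM in LPS Sample 2L to 148.4 CPM in LPS Sample 7L, against 99.0 to 113.1 CPM with saline. It did not pass when any one of LPS Samples 4L, 5L and 7L and saline Samples 1L, 6L and 8L was left out (edgeR adjusted p = 0.057 to 0.0992), nor with only the 4 libraries whose labels agree (0.0884). Psmc3, Psmc5 and Psmc6 had log2 fold changes of -0.01, 0.00 and 0.00. Whether the 2 kinds of cap subunit differed from each other was not tested.

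The assembly chaperones went both ways. Psmd9, a chaperone of the 19S base, stood at 32.7, 43.8, 46.7 and 50.4 CPM with LPS, against 27.9, 27.1, 30.7 and 28.4 CPM with saline (log2 fold change 0.61, SE 0.12, edgeR adjusted p = 0.00231). LPS Sample 2L lay near the saline libraries and the other 3 LPS libraries well above them. A long noncoding RNA on the other strand, Gm26745, covers 25.5% of its exonic bases, so the value is uncertain. Psmd5, another chaperone of the base, had a log2 fold change of 0.21 (SE 0.07, edgeR adjusted p = 0.0397), and it did not pass when any one library except LPS Sample 2L and saline Sample 6L was left out (edgeR adjusted p = 0.0691 to 0.114). Psmd10, which encodes the base chaperone gankyrin, fell, at 12.9, 10.2, 8.59 and 9.24 CPM with LPS, against 13.3, 17.3, 12.7 and 12.1 CPM with saline (log2 fold change -0.43, SE 0.15, edgeR adjusted p = 0.0422), and LPS Sample 2L lay within the saline range. Psmg2, a chaperone that pairs with Psmg1 to build the alpha ring, fell to 11.2, 9.45, 9.11 and 9.88 CPM with LPS, against 12.2, 14.5, 12.4 and 12.1 CPM with saline, with no overlap (log2 fold change -0.37, SE 0.11, edgeR adjusted p = 0.0226). Psmg2 did not pass without LPS Sample 4L or 5L or saline Sample 3L (edgeR adjusted p = 0.054 to 0.0628). Psmd10 did not pass when any one of these, LPS Sample 7L and saline Sample 1L was left out (edgeR adjusted p = 0.0695 to 0.118). The other 3 core chaperones, Psmg1, Psmg3 and Psmg4, had log2 fold changes of -0.24 to -0.26 without passing, and Psmg3 rested on 8 to 22 counts per LPS library and 13 to 22 per saline library. Psmc3ip matches the naming pattern but encodes a recombination factor and no subunit (log2 fold change -0.25, edgeR adjusted p = 0.328).

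Within each group the same few libraries were often the highest or the lowest. Of the 48 members tested, 33 were highest of the LPS group in Sample 7L and 30 were lowest in Sample 2L. Sample 2L was the highest LPS library for Psmb9, at 3.695 CPM against 2.535 to 3.167 in the others. It was also the highest for Psmb8 and Psmb10, but narrowly. The values were 16.36 CPM against 16.26 in Sample 4L for Psmb8, and 40.38 CPM against 40.35 in Sample 7L for Psmb10. In the saline group 27 of 48 members were highest in Sample 3L and 23 lowest in Sample 8L. The striatal marker sum was 213 CPM in LPS Sample 7L and 970 CPM in LPS Sample 2L. The leukocyte sum of all 10 markers was 9.65 CPM in Sample 7L and 33.4 CPM in Sample 2L. Without Cd4 it was 8.65 and 14.3 CPM. Sample 7L also had the highest neuronal sum of the LPS group, 8958 CPM against 7855 to 8193 in the others. The endothelial sum was highest in Sample 7L, at 169 CPM, and lowest in Sample 2L, at 142 CPM. The part of these markers in the order was not tested.

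Partner genes of the proteasome were taken from lists chosen with earlier results of these data known, so their counts are descriptions. Of 14 interferon regulators tested, 10 were higher (71.4%, against 21.5% of all genes) and 2 lower (14.3%, against 19.7%), with a median log2 fold change of 0.65. Irf7 had a log2 fold change of 3.41 (edgeR adjusted p = 2.78e-07) and Irf1, an activator of the immunoproteasome genes, one of 2.18, while Ifngr2, a chain of the interferon-gamma receptor, fell (-0.36), as did the kinase gene Jak2 (-0.22). Neither gene passed without LPS Sample 4L, 5L or 7L or saline Sample 3L, although the log2 fold changes were then still -0.30 to -0.36 for Ifngr2 and -0.20 to -0.25 for Jak2. Of 10 peptide loading genes 6 were higher (60%) and 1 lower (10%), with a median of 0.91. Tap1 had a log2 fold change of 3.25 and Nlrc5, the transactivator of class I genes, one of 3.17, both larger than that of Psmb8, while the chaperone gene Calr fell (-0.71). Without saline Sample 8L the list had 2 falls. Of 7 other proteases that trim or destroy peptides, Tpp2 rose (0.48) and 4 fell, among them Npepps (-0.64) and Nrd1 (-0.29). That is 14.3% of the list higher and 57.1% lower.

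Of 22 genes tested that control the proteasome or deliver substrates to it, 7 were higher (31.8%, against 21.5% of all genes) and 5 lower (22.7%, against 19.7%). These shares lie near those of all genes, and the median log2 fold change was 0.14. Ufd1 (0.57) and Zfand2a (0.50), which help to bring ubiquitylated proteins to the proteasome, were higher, and the shuttle gene Ubqln4 (-0.41) was lower. Pomp, the maturation factor of the core, fell (log2 fold change -0.24, edgeR adjusted p = 0.0398, and 0.2215 with only the 4 libraries whose labels agree) and was chosen after its value was seen. It did not pass without LPS Sample 2L, 4L or 5L or saline Sample 3L or 6L (edgeR adjusted p = 0.0628 to 0.0915), and the list had 3 falls without LPS Sample 4L or 5L or saline Sample 6L. Nfe2l1, the transcription factor that raises proteasome subunits when the proteasome is inhibited, had a log2 fold change of -0.06 and did not pass. Of 10 genes of ubiquitin and related modifiers, 3 were higher (30%), among them Isg15 (2.32) and Usp18 (1.88). Uba6 was lower (-1.25), 10% of the list.

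In HPC 24 h after nicotine 0 of 49 members passed the test, against 0% of the 18873 genes tested, and 0 passed with DESeq2 or limma-voom. At an unadjusted p under 0.05 there were 11 members, against 8.36% of all genes, and all 11 were lower with nicotine, against 4.46% of all genes. A log2 fold change below 0 was found for 42 of 49 members, 85.7%, against 49.1% of all genes, and the median was -0.09, against 0.00 over all genes. No member had groups that did not overlap, against 0.387% of all genes. All members were read from the same 12 libraries and are not independent of each other.

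Psmb8 and Psmb9, which are weakly expressed in HPC, had wide intervals. Psmb8 had a lowest, median and highest CPM of 1.64, 2.11 and 2.59 with nicotine, against 1.93, 2.22 and 3.65 with saline (log2 fold change -0.18, interval -0.53 to 0.17). Psmb9 had 0.751, 0.935 and 1.24 CPM with nicotine, against 0.604, 0.794 and 1.82 with saline (log2 fold change 0.08, interval -0.45 to 0.61). Saline Sample 2N was the highest library for both, and its microglial marker sum was 454 CPM, against 307 to 361 in the other saline libraries. The part of these markers was not tested. The estimate for Psmb9 turned to -0.0058 without nicotine Sample 10N and to -0.0111 without saline Sample 4N, and it was 0.39 without saline Sample 2N. Psmb10 had a log2 fold change of -0.07, Psme1 one of -0.09 and Psme2 one of -0.28 (interval -0.51 to -0.05, edgeR adjusted p = 0.556). As shares of their pairs, Psmb8 stood at 2.87 ± 0.401% with nicotine and 2.72 ± 0.456% with saline, and Psmb10 at 17.9 ± 1.40% with nicotine and 17.3 ± 0.902% with saline (SD, n = 6 each).

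The constitutive catalytic genes had estimates below 0 in HPC. Psmb5 had a lowest, median and highest CPM of 30.2, 40.0 and 48.2 with nicotine, against 40.9, 45.4 and 55.3 with saline (log2 fold change -0.23, interval -0.45 to -0.02, edgeR adjusted p = 0.58). Psmb6 had a log2 fold change of -0.07 (interval -0.21 to 0.07) and Psmb7 one of -0.13 (interval -0.27 to 0.00). The smallest p belonged to Psma5, an alpha subunit, at 34.2, 39.4 and 42.6 CPM with nicotine, against 42.4, 44.7 and 51.6 with saline (log2 fold change -0.21, interval -0.34 to -0.07, edgeR adjusted p = 0.555), and its groups met only at their edges. Next came the lid subunit Psmd6 (-0.16) and the deubiquitinase Psmd14 (-0.14). Per kilobase the alpha subunits summed to 325 ± 21.7 CPM with nicotine and 354 ± 30.4 CPM with saline (SD, n = 6 each). In HPC 0 genes of the partner lists passed.

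**Figure D4:**
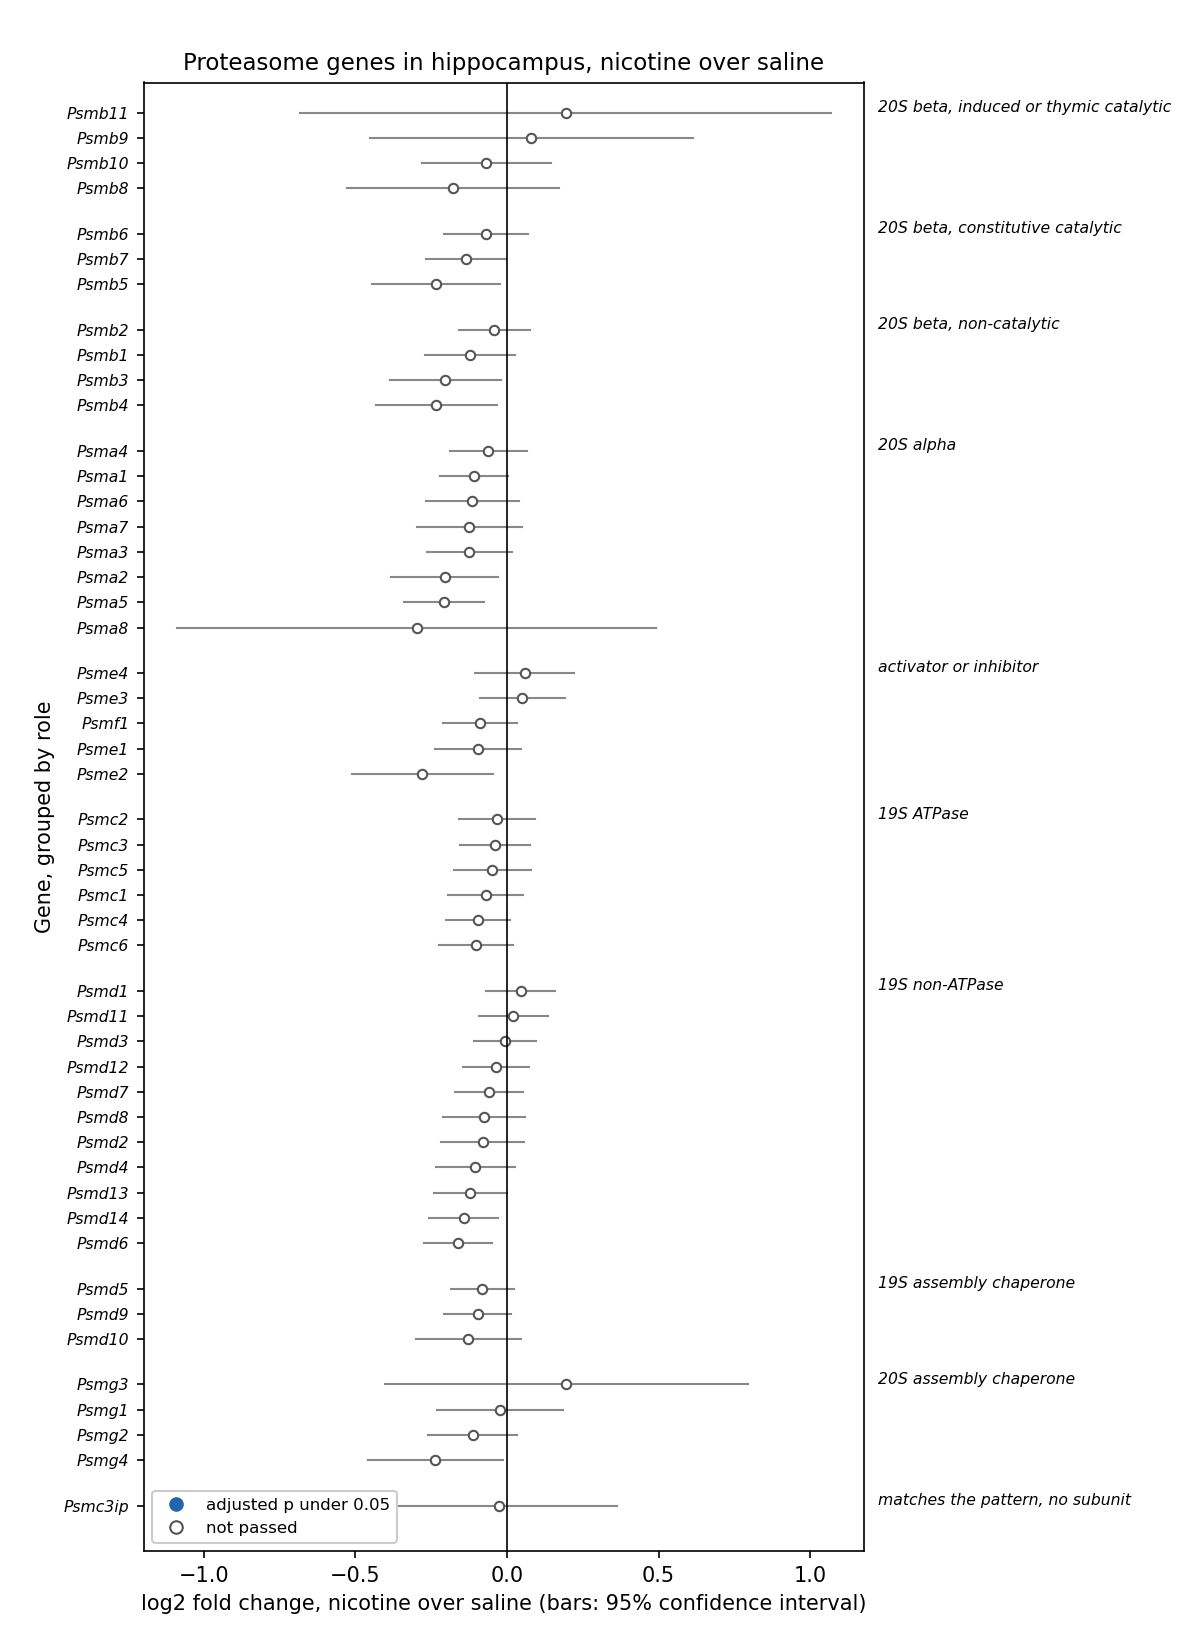
log2 fold change of nicotine over saline in HPC (x axis) for the 49 members tested (y axis, grouped by role as named at the right). Points are estimates and bars are 95% confidence intervals, and all points are open because 0 passed an adjusted p of 0.05. Most points lie between -0.3 and 0.1, with 42 of 49 below 0.

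In HPC too, a few libraries set the extremes. Nicotine Sample 10N was the highest of its group for 35 of 49 members and Sample 8N the lowest for 23. In the saline group Sample 2N was highest for 25 members and Sample 5N lowest for 26. Ttr, which marks choroid plexus, exceeded 1000 CPM in nicotine Samples 10N and 11N and saline Samples 2N and 5N. Without these 4 libraries, an alternative added after seeing the data, 44 of 49 members (89.8%) had a log2 fold change below 0, against 46.6% of the 18806 genes in that fit. An unadjusted p under 0.05 was found for 21 members (42.9%), against 13.8% of all genes, and 0 members passed. The part of choroid plexus RNA was not tested further.

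With 12 libraries pairs of subunits could also be compared across HPC libraries, as log2 CPM relative to the group mean. The permutations mixed the 2 groups, and the p-values do not allow for the removal of the group means. Pairs of other genes were not examined, so a relation given here may not be particular to these subunits. Of the constitutive catalytic genes, Psmb5 and Psmb7 had a Pearson r of 0.87 and a Spearman rho of 0.88 (n = 12, 2-sided permutation p = 0.00016 and 0.00036, and 0.00208 and 0.00468 after Benjamini-Hochberg adjustment over 13 pairs). Without the 2 libraries farthest from the median of Psmb5 r was 0.92, and it was 0.85 within nicotine and 0.95 within saline. Psmb6 and Psmb7 had an r of 0.79 and a rho of 0.77 (permutation p = 0.00115 and 0.00497, adjusted 0.00747 and 0.0215), and r was 0.70 without the 2 farthest libraries. Psmb5 and Psmb6 had an r of 0.65 and a rho of 0.61 (permutation p = 0.0235 and 0.0394, adjusted 0.0339 and 0.0854), so the rho did not pass, and r was 0.42 within nicotine and 0.97 within saline. Psmb10 and Psme2 had an r of 0.76 and a rho of 0.82 (permutation p = 0.00398 and 0.00157, adjusted 0.017 and 0.0102) and an r of 0.83 without the 2 farthest libraries. Psmb8 and Psmb10 had an r of 0.64 and a rho of 0.74 (permutation p = 0.0164 and 0.00821, adjusted 0.0311 and 0.0267), and r was 0.53 without the 2 farthest libraries. The pair Psmb8 and Psmb9 had an r of 0.81 and a rho of 0.48 (permutation p = 0.00523 and 0.122, adjusted 0.017 and 0.151). Its r was 0.04 without the 2 farthest libraries, so that relation rests on those. Psmb8 with Psme1 or Psme2 passed by r (adjusted permutation p = 0.0311 and 0.0241) but not by rho (0.109 and 0.0777). Without the 2 farthest libraries r went from 0.64 to 0.30 with Psme1 and from 0.71 to 0.06 with Psme2. Psmb9 and Psme2 had an r of 0.66 that passed (adjusted permutation p = 0.0311) and a rho that did not (0.151). Their r was -0.16 without the 2 farthest libraries. The remaining pairs of induced genes passed by neither r nor rho. All 12 libraries come from one count table, the labels name no batch, and tissue composition differed between them as described.

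Levels per kilobase were far from equal within the particle, although each core subunit is present in equal number in the protein complex. In saline PFC the 14 constitutive core subunits ran from 25.1 CPM per kilobase for Psma3 to 132 for Psmb6, a 5.28-fold range. These ranges and orders depend on the transcript length used. Psma3 was divided by 2846 bases and Psmb6 by 798, and before division they stood at 71.4 and 105.6 CPM. In saline HPC they ran from 26.4 for Psma2 to 97.8 for Psmb6, a 3.71-fold range. The 17 cap subunits ran from 25.0 for Psmd11 to 118 for Psmc5 in saline PFC, and the same genes stood lowest and highest in saline HPC. Of the induced subunits, Psmb10 stood at 21.3 CPM per kilobase in saline PFC and 15.2 in saline HPC, below the lowest constitutive subunit in both. Psmb8 stood at 2.30 and 1.46, and Psmb9 at 1.10 and 0.68, in the same order of tissues.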

How the data were processed

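Per the labels' protocols, TRIzol extracts were made into poly(A)-selected libraries. The authors deposited raw counts per gene, 1 table for each tissue. fastp, STAR, featureCounts, DESeq2 and build mm10 are named without versions or roles, per the submitters' processing notes. The annotation is not given in the sources used here, nor is the strand setting of the counting. Hippocampal Ensembl IDs were matched to symbols through GENCODE vM21 (51884 of 57180), which also gave coordinates and lengths.

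PFC and HPC had separate edgeR fits (version 4.0.16, R 4.3.3): TMM factors, filterByExpr, quasi-likelihood F-test, Benjamini-Hochberg adjustment over all genes tested, threshold 0.05. The median 95% interval of a log2 fold change reached 0.29 to either side in PFC and 0.22 in HPC. Alternatives were DESeq2 1.42.0, limma-voom (limma 3.58.1), other scaling factors and filters, a replicate block, single libraries left out, marker covariates and the groupings by label. The fit was tested on simulated data.

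The members and gene lists were chosen with earlier results of these data known. Named members were the 5 induced and 3 constitutive catalytic genes, then per role up to 3 rises and 3 falls with the smallest p in PFC (the smallest p where none passed), and up to 2 of each per partner list. In HPC they were the same 8 and the 3 smallest p. Some genes this rule or the marker lists take in are not reported here. Titles call the samples biological replicates, and p-values measure only the spread between these libraries. No pair of libraries of a group agreed within sampling noise (chi-square per degree of freedom at least 11.7). Replicate numbers were not used to pair the samples in the main fits. Promoter windows are from RefSeq, and levels per kilobase use the principal transcript.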

Additional observations from a re-analysis of the deposited data

Results flagged for a closer look

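Of 84 groups of values examined, 12 held a library far from the others by Dixon's 95% criterion, which chance meets in about 1 of 20 groups. In LPS PFC, Sample 7L stood at 63.7 CPM for Psmb5, against 46.8 to 49.4 CPM in the other 3 LPS libraries, and at 109.7 CPM for Psmb7, against 96.4 to 97.4. The same library was low for Psmb8, at 13.7 CPM against 16.1 to 16.4, so Psmb8 made up 10.6% of the pair with Psmb5 there, against 15.2 to 16.1%. Sample 2L was low for Psmd5, at 47.1 CPM against 52.3 to 52.7. In saline PFC, Sample 3L stood at 113.1 CPM for Psmc2, against 99.0 to 101.1, and at 14.5 CPM for Psmg2, against 12.1 to 12.4.

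In saline HPC, Sample 2N was high for Psmb8, at 3.65 CPM against 1.93 to 2.26, for Psmb9, at 1.82 CPM against 0.604 to 0.808, and for Psma5, at 51.6 CPM against 42.4 to 45.5. Psmb9 made up 1.19% of the pair with Psmb6 in that library, against 0.44 to 0.654%. In nicotine HPC, Sample 8N was low for Psmd14, at 58.6 CPM against 68.2 to 71.7.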

How the results depend on the processing

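In the 15 alternatives that gave values for each of 24 named PFC members, which do not include the groups by title, limma-voom and the striatal covariate, 317 values kept their direction and side of the threshold, 41 no longer passed, Psmb5 passed as lower without LPS Sample 7L, and Psmb6 changed sign. Psmb8, Psmb9, Psmd3, Psmd9, Psme4 and Psmf1 passed in all 15, and under the groups by title 0 members passed. Leaving out single libraries gave 14 to 30 members called, 14 to 27 higher and 0 to 3 lower, and -0.0128 to 0.1516 for the log2 fold change of Psmb6. Groups by title gave 0 called, 0 higher and 0 lower, and the 4 libraries whose labels agree gave 11 called, 8 of them higher and 3 lower. DESeq2 called 25, limma-voom 26, no filter on low counts 21, and a striatal covariate 27. With a replicate block by the number in the title, 22 members were called, 21 higher and 1 lower. Except for the groups by title, the share of all genes called in these PFC fits is not given here. The counts therefore cannot tell a change in the members from a change over all genes. Deviations of libraries with the same number correlated at -0.295 to 0.185 in PFC and -0.0811 to 0.421 in HPC. In PFC 2 of 8 and in HPC 4 of 12 libraries correlated best with their own number. Whether the numbers pair the libraries was not tested. In HPC 0 members were called in every alternative and 39 to 44 were below 0, while Psmb9 ranged from -0.0111 to 0.3924 without single libraries. Of 285 values for partner genes, 263 kept their call and 22 no longer passed. Depth limits Psmb11, Psma8 and Psmg3, and Psmb9 in HPC.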

Other observations

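Irf8, the interferon regulatory factor of microglia and myeloid cells, is listed at 0 counts in all 8 PFC libraries. In HPC it stood at 4.71 to 6.22 CPM with nicotine and 4.57 to 7.86 CPM with saline. The other microglial genes Cx3cr1 and Csf1r were well above 0 in PFC, at 28.3 to 60.3 CPM and 71.3 to 97.8 CPM with LPS, and 52.4 to 56.4 CPM and 82.8 to 90.8 CPM with saline. The cause of these values was not tested.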
